A study of Mus musculus with 63 samples.

Results

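Malat1, Neat1, Meg3, Rian, Mirg, Miat, Snhg11, Kcnq1ot1 and Peg13 are long noncoding RNAs that are mostly retained in the nucleus, and several of them are transcribed from imprinted loci. They were taken by gene symbol from the deposited count tables, which made 9 of 55291 symbols, and all were counted in each of 63 libraries, with 58 reads as the lowest count. The libraries come from mouse organotypic tissue cultures of the entorhinal cortex and hippocampus, prepared at postnatal days 3 to 5 from wildtype (C57BL/6J, Synpo+/+) and synaptopodin-deficient (B6.129-Synpotm1Mndl/Dllr, Synpo-/-) mice of either sex and kept for at least 18 days in vitro. Synaptopodin is an actin-associated protein of dendritic spines and a component of the spine apparatus. In the Synpo-coIP experiment an antibody against synaptopodin on protein A beads was used to pull RNA out of a lysate of 6 pooled cultures in the presence of cycloheximide, and an aliquot of the precleared lysate was kept as input. It holds 5 input and 5 coIP libraries from Synpo+/+ control cultures, 5 and 5 from Synpo+/+ cultures after entorhinal cortex lesion (ECL), and 2 and 2 from Synpo-/- cultures, whose labels give no lesion state. In the regional experiment the dentate gyrus (DG) or the CA3 field of a single culture was cut out. Its 39 libraries are Synpo+/+ DG control (n = 4), Synpo+/+ DG ECL (n = 7), Synpo-/- DG control (n = 7), Synpo-/- DG ECL (n = 4), Synpo+/+ CA3 control (n = 2), Synpo+/+ CA3 ECL (n = 3), Synpo-/- CA3 control (n = 6) and Synpo-/- CA3 ECL (n = 6). The question put to these RNAs was how RNA that is not translated behaves in a pull-down meant for mRNA, with and without synaptopodin in the tissue.

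As background, Malat1 sits in nuclear speckles, where splicing factors are stored, and Neat1 is the scaffold of paraspeckles, nuclear bodies built around this RNA. Meg3, Rian and Mirg lie in a row on the maternally expressed strand of the imprinted Dlk1-Dio3 locus, and Rian and Mirg host small nucleolar RNAs and microRNAs. Kcnq1ot1 is transcribed from the paternal allele, antisense to Kcnq1, and silences neighbouring genes in cis. Peg13 is a paternally expressed RNA from within the Trappc9 gene and is abundant in brain. Miat (Gomafu) forms its own nuclear domain in neurons, and Snhg11 is the host gene of a small nucleolar RNA and is strongly expressed in neurons.

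The 3′ ends of the RNAs are shown first, because the libraries were made from polyadenylated RNA. Paired stretches near the end also set Malat1 and Neat1 apart among these RNAs. Malat1 and the long form of Neat1 are known to be cut at their 3′ end by RNase P. A triple helix protects this end in place of a poly(A) tail. The annotation holds 4 transcripts of Neat1 in a single block of 20771 bases, and the gene counts do not separate them. In the sequences below, from the GRCm38 reference and read 5′ to 3′ on the strand of the gene with T for U, capitals in Malat1 and Neat1 mark TTTTGCTTT and AAAGCAAAA, the U-rich and A-rich stretches. In the other RNAs they mark AATAAA or ATTAAA, the polyadenylation signals.
Malat1 (chr19:5795971-5796060, minus strand): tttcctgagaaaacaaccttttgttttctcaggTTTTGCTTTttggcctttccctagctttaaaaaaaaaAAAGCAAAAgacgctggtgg
Neat1 (chr19:5824708-5824786, minus strand): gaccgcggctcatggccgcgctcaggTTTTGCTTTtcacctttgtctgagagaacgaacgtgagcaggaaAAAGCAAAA
Meg3 (chr12:109571667-109571726, plus strand): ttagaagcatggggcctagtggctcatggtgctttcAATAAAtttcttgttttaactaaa
Rian (chr12:109661657-109661716, plus strand): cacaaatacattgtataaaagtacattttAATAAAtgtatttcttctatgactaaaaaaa
Kcnq1ot1 (chr7:143203458-143203517, minus strand): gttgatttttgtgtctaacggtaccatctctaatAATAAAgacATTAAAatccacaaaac
Peg13 (chr15:72805600-72805659, minus strand): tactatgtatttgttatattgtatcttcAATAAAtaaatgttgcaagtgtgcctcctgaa
The pair TTTTGCTTT followed within 100 bases by AAAGCAAAA was searched on the strand of each gene (the 2 words are reverse complements of each other). The search covered the whole span of a gene, introns included, so its shares are not limited to 3′ ends. The pair was found in 10 of 9943 long noncoding genes (0.101%) and in 75 of 21831 protein-coding genes (0.344%). Among the 9 RNAs it occurred in Malat1 and in Neat1. The annotated Neat1 gene ends with the last base of the A-rich stretch, whereas the annotated Malat1 gene runs 281 bases beyond the stretch of sequence shown. A polyadenylation signal was present in the last 60 bases of 43.8% of long noncoding and 73.1% of protein-coding genes. Of the 8 RNAs other than Snhg11, 7 had a signal there (87.5%). The annotated end of Malat1, which is not printed, was among them, and that of Neat1 was not.

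An A-rich stretch inside a transcript is another place where an oligo(dT) primer can bind. Kcnq1ot1, annotated as a single exon of 93092 bases, holds the longest run of A among these RNAs, 41 bases, which lies 23467 bases before its end in the sequence below (capitals mark the run).
Kcnq1ot1 (chr7:143226925-143227005, minus strand): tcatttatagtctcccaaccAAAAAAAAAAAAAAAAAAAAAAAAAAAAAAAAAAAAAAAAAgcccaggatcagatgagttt

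In the annotation used for the counts (GENCODE, GRCm38), Malat1 (ENSMUSG00000092341.3, chr19:5795690-5802672) and Neat1 (ENSMUSG00000092274.3, chr19:5824708-5845478) are neighbours on the minus strand, with 6983 and 20771 exonic bases in a single block each. Meg3 (chr12:109541001-109571726), Rian (chr12:109603808-109661716) and Mirg (chr12:109729764-109749460) follow each other on the plus strand with 18089, 31981 and 7292 exonic bases. Miat (chr5:112213228-112229395, minus strand) has 9293 exonic bases, Snhg11 (chr2:158375638-158386151, plus strand) 8527, Kcnq1ot1 (chr7:143203458-143296549, minus strand) 93092 and Peg13 (chr15:72805600-72810324, minus strand) 4725. Snhg11 carries the biotype protein coding in this annotation and the other RNAs noncoding biotypes. Counting ignored strand, so reads over exons that overlapping genes share could not be assigned by strand. This concerns mainly Miat, 24.3% of whose exonic bases are shared with the antisense transcript Gm26953 (median count 17). Malat1 shares 6.49% with Gm37376, which lies wholly within Malat1. Gm37376 had a count of 0 in every library, so reads over its bases were not counted for it. Whether reads over shared bases entered the counts and TPM of the RNAs was not tested. Kcnq1ot1 shares 121 bases with Kcnq1 (median count 18).

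Levels were compared between the RNAs per exonic length (TPM, counts per exonic base as a share of the library). Exonic length joins the exons of all annotated transcripts of a gene, so single transcripts can be shorter. Malat1 was the most abundant in both experiments, with a median of 5733 TPM (4139 to 7891) in the regional libraries and 4197 TPM (3103 to 7998) in the libraries of the Synpo-coIP experiment. Snhg11 and Meg3 followed, with medians of 241 and 141 TPM in the regional libraries and of 530.1 and 445 TPM in the Synpo-coIP experiment, and their ranges overlapped. All other RNAs had lower TPM. In the regional libraries Neat1 (median 16.8 TPM), Peg13 (13.0), Rian (12.3), Kcnq1ot1 (7.41) and Miat (6.47) had ranges that overlapped with those of their neighbours in this order. Mirg was lowest with 1.91 TPM (1.21 to 3.23), below the lowest Miat value of 4.83 TPM. In the Synpo-coIP experiment Peg13 (51.0 TPM) was followed by Neat1, Rian, Miat, Mirg and Kcnq1ot1 with medians from 16.3 down to 7.79 TPM, without a gap between neighbours. Together the RNAs took 1.15% to 2.58% of all counts in the Synpo-coIP experiment and 1.26% to 2.37% in the regional experiment, mostly through Malat1.

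Total counts per library ranged from 11601154 to 53682143 in the Synpo-coIP experiment and from 14055930 to 46043990 in the regional experiment. The Synpo-/- libraries of the Synpo-coIP experiment were the deepest, with 42886994 to 53682143 counts, and carry label text of their own, so that genotype and preparation cannot be told apart there. Synpo counts were not lower in them, with 31.0 and 27.6 CPM (counts scaled to library size) in the inputs and 30.4 and 25.7 in the coIP, against 21.0 to 31.7 CPM in the 5 Synpo+/+ control inputs and 26.5 to 42.2 CPM in their coIP. In the DG, Synpo was higher in control Synpo-/- (40.6 to 68.1 CPM) than in control Synpo+/+ libraries (at most 24.6 CPM, log2 fold change 1.17, adjusted p 0.000517 in edgeR). The counts thus show no loss of Synpo RNA in these libraries labelled Synpo-/-. Counts over all exons of a gene cannot show whether a coding part or the protein is lost, and genotypes are given here as labelled. Mitochondrial transcripts took 1.83% to 3.04% of counts in the inputs and 4.15% to 6.27% in the coIP, and their part in the coIP results was not tested. In the regional experiment Prox1, a marker of dentate granule cells, had 15.7 CPM in Synpo+/+ DG ECL replicate 5, within the range of the CA3 libraries, and at least 118 CPM in all other DG libraries. Microglia markers were present, and endothelial markers, whose summed level was at most 24.7 CPM, were sparse.

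In Synpo+/+ control cultures 7 of the 9 noncoding RNAs were higher in the coIP than in the input, namely Neat1, Kcnq1ot1, Mirg, Rian, Peg13, Miat and Snhg11, and none was lower. Here and below, a change was called at an adjusted p under 0.05 (edgeR, quasi-likelihood test, Benjamini-Hochberg adjustment over all genes tested), and CPM are scaled by TMM within an experiment. Of all genes tested, 29.6% were called higher in this comparison. The log2 fold changes of the 9 RNAs ranged from -0.24 to 1.84 with a median of 0.82, where the median of all 18222 genes was 0.04. In Synpo+/+ ECL cultures 7 of 9 RNAs were called higher (median log2 fold change 1.12), against 30.5% of all genes (median 0.02). In cultures labelled Synpo-/-, the control for the antibody, 6 of 9 were called higher (median 0.71), against 15.0% of all genes (median 0.02).

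**Figure D1:**
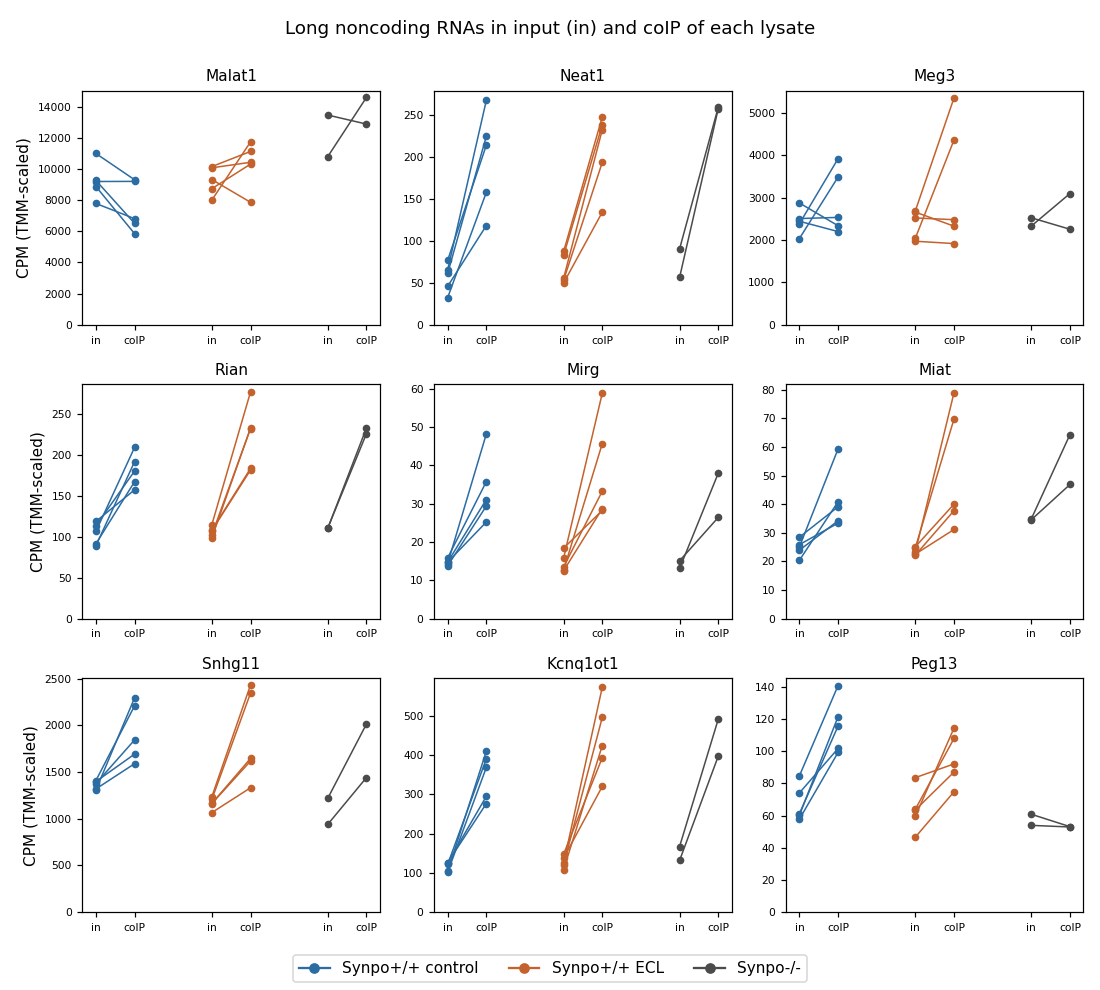
TMM-scaled CPM (y axis, starting at 0) of each RNA in the input and the coIP of every lysate, joined by a line, for Synpo+/+ control (n = 5), Synpo+/+ ECL (n = 5) and Synpo-/- (n = 2) cultures. Neat1, Kcnq1ot1, Rian, Mirg, Miat and Snhg11 rise in every lysate of all groups, and Peg13 rises in the Synpo+/+ lysates and not in either Synpo-/- lysate.

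Neat1, the paraspeckle scaffold, showed the largest log2 fold change of the 9 RNAs in Synpo+/+ control and in Synpo-/- cultures. In the control inputs it had 32.5, 46.0, 65.7, 61.4 and 77.1 CPM (replicates 1 to 5) and in the coIP 158, 118, 268, 225 and 215 CPM. Every coIP library was above every input, and the log2 fold change was 1.84 (SE 0.24, adjusted p 1.53e-05), a 3.59-fold higher level. In Synpo+/+ ECL cultures Neat1 had 49.9, 53.4, 83.1, 55.7 and 87.6 CPM in the inputs against 134, 194, 239, 233 and 248 CPM in the coIP (log2 fold change 1.73, SE 0.20, adjusted p 8.62e-06).
The Synpo-/- cultures gave the same picture without overlap, with 90.6 and 56.5 CPM in the inputs and 260 and 258 CPM in the coIP (log2 fold change 1.84, SE 0.19, adjusted p 0.000183). The difference between the coIP effects of Synpo+/+ control and Synpo-/- cultures was -0.05 on the log2 scale (SE 0.42, adjusted p 0.988), with a 95% interval from -0.87 to 0.76.

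Kcnq1ot1, the antisense RNA that silences its imprinted cluster, had the next largest log2 fold change in control cultures. It had 102, 126, 104, 122 and 125 CPM in the control inputs and 368, 276, 410, 390 and 295 CPM in the coIP (log2 fold change 1.63, SE 0.13, adjusted p 3.36e-07). In ECL cultures 108 to 148 CPM (median 126) in the inputs stood against 320 to 572 CPM (median 424) in the coIP (1.85, SE 0.15, adjusted p 1.51e-06). The groups did not overlap in either case.
In Synpo-/- cultures the values were 167 and 132 CPM in the inputs and 491 and 397 CPM in the coIP (1.60, SE 0.16, adjusted p 0.000183). The genotype difference of the coIP effect was -0.02 (SE 0.23, adjusted p 0.991).

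Malat1, the speckle RNA, did not follow them. The control inputs held 10989, 9264, 9193, 8870 and 7784 CPM and the coIP 9305, 6507, 9200, 5847 and 6809 CPM, with overlapping groups (log2 fold change -0.24, SE 0.14, adjusted p 0.15). With the lysate as a block, the fall passed the test (log2 fold change -0.27, SE 0.08, adjusted p 0.00582), and the coIP was lower in 4 of 5 lysates and level with the input in replicate 3. Without control coIP replicate 1 it was -0.33 (adjusted p 0.0496). In ECL cultures Malat1 had 9320, 10151, 8732, 8004 and 10071 CPM in the inputs and 7859, 11121, 10310, 11731 and 10425 CPM in the coIP (0.21, SE 0.13, adjusted p 0.171), and without ECL coIP replicate 1 the log2 fold change was 0.30 (adjusted p 0.0256).
The Synpo-/- libraries had 13454 and 10795 CPM in the inputs and 12876 and 14589 CPM in the coIP (0.21, SE 0.15, adjusted p 0.313). Paired by preparation number, the coIP was lower in the first and higher in the second lysate. The replicate labels of these libraries conflict, and with the crossed pairing the coIP was higher in both. Neat1 and Malat1, whose genes are neighbours and whose 3′ ends share the paired stretches printed above, thus had coIP effects of 1.84 and -0.24 in the same control libraries.

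Within the Dlk1-Dio3 locus the effects differed along the cluster. Meg3, its first and by TPM most abundant RNA, was not called in any of the 3 comparisons. Its control inputs had 2038, 2445, 2387, 2509 and 2877 CPM and the coIP 3490, 2202, 3924, 2537 and 2340 CPM (log2 fold change 0.29, SE 0.16, adjusted p 0.135). In ECL cultures the inputs had 2662, 2048, 2523, 2693 and 1973 CPM and the coIP 2329, 4366, 2483, 5360 and 1919 CPM (0.53, SE 0.25, adjusted p 0.076). In 2 coIP libraries of each group, control replicates 1 and 3 and ECL replicates 2 and 4, Meg3 exceeded every input, while the other coIP libraries lay within or near the range of the inputs.
Miat and Mirg were highest in some of the same libraries (59.3 and 48.2 CPM in control replicate 3, 79.0 and 58.9 CPM in ECL replicate 4), and these 2 libraries were the shallowest, with 12888443 and 11601154 counts. The part of depth in these values was not tested. Meg3 in Synpo-/- cultures had 2527 and 2332 CPM in the inputs and 2257 and 3100 CPM in the coIP (0.17, SE 0.16, adjusted p 0.439). Meg3 in ECL cultures was called when libraries were scaled on coding genes (0.62, adjusted p 0.0483) or all groups were fitted together (0.50, adjusted p 0.0478). It was also called when 1 coIP library was left out, in ECL cultures (0.64, adjusted p 0.042 without replicate 1, and 0.68, adjusted p 0.0199 without replicate 5) and in Synpo-/- cultures (0.37, adjusted p 0.0301 without replicate 1).

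Rian and Mirg, downstream in the same cluster, were higher in the coIP in all 3 comparisons without overlap. Rian rose from 89.0 to 119 CPM (median 107) in the control inputs to 157 to 209 CPM (median 180) in the coIP, a log2 fold change of 0.85 (SE 0.11, adjusted p 1.86e-05). It rose by 1.12 (SE 0.12, adjusted p 7.49e-06) in ECL and by 1.08 (SE 0.13, adjusted p 0.000241) in Synpo-/- cultures, where 111 and 110 CPM in the inputs stood against 226 and 233 CPM in the coIP.
Mirg, a microRNA host with few counts, rose from 13.8 to 15.8 CPM in the control inputs to 25.2 to 48.2 CPM in the coIP (1.25, SE 0.15, adjusted p 8.52e-06). Its log2 fold changes were 1.48 (SE 0.20, adjusted p 3.67e-05) in ECL and 1.22 (SE 0.19, adjusted p 0.000773) in Synpo-/- cultures. The lysate pairs rose in 5 of 5, 5 of 5 and 2 of 2 cases for both RNAs.

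Miat and Snhg11, the neuronal RNAs, were also higher in every coIP library than in its input. Miat had 20.4 to 28.4 CPM in the control inputs and 33.4 to 59.3 CPM in the coIP (log2 fold change 0.79, SE 0.16, adjusted p 0.000581), and it changed by 1.19 (SE 0.22, adjusted p 0.00045) in ECL and by 0.71 (SE 0.16, adjusted p 0.00635) in Synpo-/- cultures. The antisense transcript Gm26953, which shares exons with Miat, changed by 1.37, 1.22 and 1.14 in the same comparisons. Snhg11 had 1308 to 1409 CPM in the control inputs and 1589 to 2294 CPM in the coIP (0.55, SE 0.11, adjusted p 0.000559).
In ECL and Synpo-/- cultures Snhg11 changed by 0.74 (SE 0.16, adjusted p 0.00105) and 0.71 (SE 0.18, adjusted p 0.00957), and the Synpo-/- call was lost without input replicate 1 (0.55, adjusted p 0.0586). Of the RNAs that were called higher in Synpo+/+ control cultures, Snhg11 had the smallest log2 fold change.

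Peg13 was called higher in the coIP of Synpo+/+ cultures and was not called in Synpo-/- cultures. Its values were 61.2, 74.1, 57.8, 60.3 and 84.7 CPM in the control inputs and 116, 102, 99.2, 122 and 141 CPM in the coIP, without overlap (log2 fold change 0.82, SE 0.13, adjusted p 7.97e-05). In ECL cultures 83.6, 64.0, 63.5, 59.5 and 46.6 CPM in the inputs stood against 92.1, 108, 87.1, 114 and 74.8 CPM in the coIP (0.65, SE 0.15, adjusted p 0.00228), and although the groups overlapped, the coIP was higher in 5 of 5 lysates.
Peg13 in Synpo-/- cultures had 60.8 and 53.9 CPM in the inputs and 53.1 and 52.9 CPM in the coIP (-0.08, SE 0.14, adjusted p 0.685). Neither lysate rose, with coIP to input ratios of 0.874 and 0.981 when paired by preparation number. Those of the 10 Synpo+/+ lysates lay between 1.10 and 2.02. The difference between the coIP effects of Synpo+/+ control and Synpo-/- cultures was 0.85 on the log2 scale (SE 0.22, unadjusted p 0.00128 in edgeR), and its adjusted p was 0.48.
With the lysate as a block the difference was 0.86 (SE 0.16, adjusted p 0.0413), and DESeq2 gave 0.86 (adjusted p 0.0451). In edgeR without a block it was not called with RLE factors, with scaling on coding genes or with length, or length and GC, trends removed. Nor was it called with the lesioned Synpo+/+ samples in place of the control samples. Trappc9, the coding gene that contains Peg13 on the same strand without sharing exons, was higher in the coIP in all 3 comparisons, by 0.72, 0.74 and 0.56. For comparison, Synpo mRNA changed by 0.47 (SE 0.14, adjusted p 0.0107) in Synpo+/+ control and by -0.03 (SE 0.16, adjusted p 0.896) in Synpo-/- cultures.

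**Figure D2:**
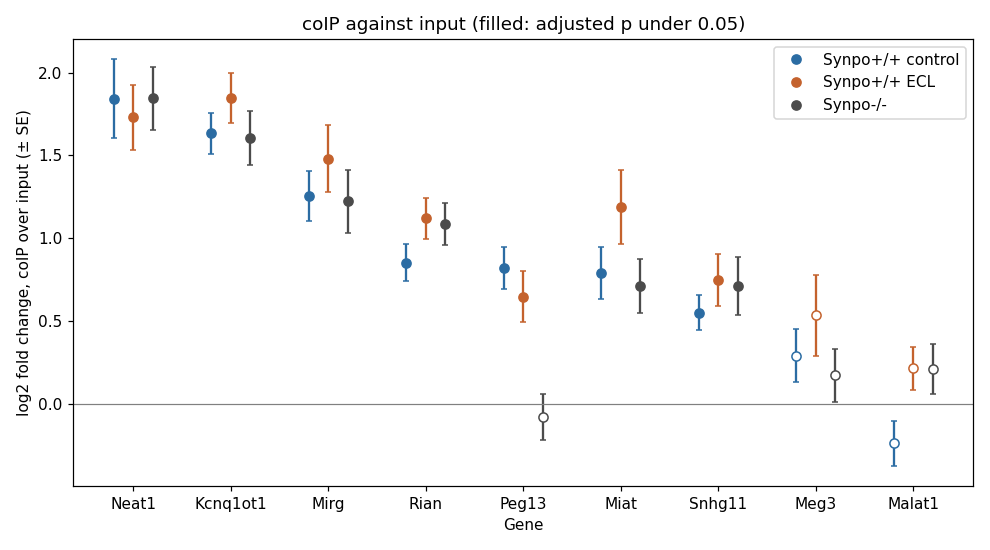
Fitted log2 fold change of coIP over input with its SE for each RNA in Synpo+/+ control, Synpo+/+ ECL and Synpo-/- cultures (edgeR), with filled points where the adjusted p was under 0.05. The 3 estimates lie close together for Neat1 (1.84, 1.73 and 1.84) and apart for Peg13 (0.82, 0.65 and -0.08).

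Besides Peg13, Malat1 had the largest difference in coIP effect between the genotypes, -0.50 (SE 0.24, adjusted p 0.694), and -0.53 (SE 0.16, adjusted p 0.153) with the lysate as a block. Without the block, 0 of the 9 RNAs were called in the edgeR test at an adjusted p under 0.05, as were 0% of all 20621 genes (1511 had an unadjusted p under 0.05, among them 1 of the 9 RNAs, and DESeq2 called 60). The interaction of lesion with fraction called 0 of 9 RNAs and 0% of all 19581 genes (434 with an unadjusted p under 0.05). Malat1 had the largest difference there, 0.49 (SE 0.19, unadjusted p 0.0151, adjusted p 1.00), from coIP effects of -0.24 in control and 0.21 in ECL cultures.

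The coIP effect of coding genes moved with their exonic length, which sets the scale for these long RNAs. In Synpo+/+ control cultures the median log2 fold change of coding genes rose from -0.95 below 1000 exonic bases to 0.13 between 4000 and 8000, 0.40 between 8000 and 16000 and 0.66 above 16000. The same classes in Synpo-/- cultures had medians of -0.73, 0.05, 0.26 and 0.46. Other long noncoding RNAs showed no steady rise, with control medians of 0.07 below 1000, 0.04 between 4000 and 8000 bases, and 0.54 for the 9 above 16000 bases. Their median over all lengths was 0.02, with 452 of 1890 called higher and 312 lower. Among the 110 with a mean count of 300 or more, 28 were higher and 40 lower, with a median of -0.17.
Set against coding genes of their length class in control cultures, Neat1 and Kcnq1ot1 were above all 312 coding genes longer than 16000 bases. This class has no upper limit, so Kcnq1ot1, with 93092 annotated bases, was not closely matched in length. The lengths join the exons of all annotated transcripts, 11 for Meg3, 69 for Rian and 4 for Neat1. Single transcripts can be shorter, and how these RNAs stand by transcript length was not tested. Mirg was above 98.3% of 5589 coding genes of 4000 to 8000 bases and Peg13 above 88.4% of them, and Miat was above 79.3% of the coding genes of 8000 to 16000 bases. Rian (68.3%) and Snhg11 (61.1%) lay within the quartiles of their classes. Meg3 and Malat1 lay low in theirs, above 20.8% and 25.8% of the coding genes.
In Synpo-/- cultures Neat1 and Kcnq1ot1 were again above all coding genes of their class, Mirg was above 98.1%, Rian above 96.8% and Peg13 above 40.6%.

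**Figure D3:**
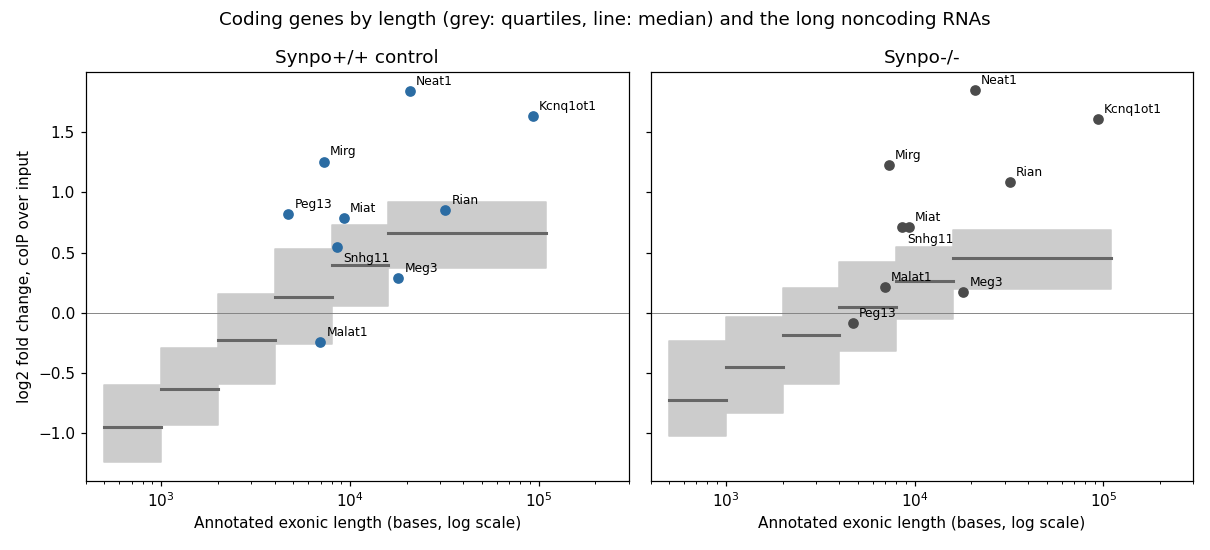
Log2 fold change of coIP over input against annotated exonic length (log axis) in Synpo+/+ control and Synpo-/- cultures, with the RNAs as points and protein-coding genes in 6 length classes as quartiles (grey) and median (line). Neat1 and Kcnq1ot1 stand above the grey box of the longest class in both panels, and Meg3 stands below its lower quartile.

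Most of the coIP effects were smaller when the length trend of each library was removed in the fit. The trend was drawn over all genes tested with a mean count above 50, these RNAs included. How well it is supported at the length of Kcnq1ot1, or for transcripts shorter than the joined exons, was not tested. For Kcnq1ot1 the log2 fold changes in Synpo+/+ control, Synpo+/+ ECL and Synpo-/- cultures were then 0.49, 0.58 and 0.72 in place of 1.63, 1.85 and 1.60, and all remained called (adjusted p 0.00069, 0.000162 and 0.00677). Neat1 had 1.20, 1.04 and 1.39 in place of 1.84, 1.73 and 1.84, and was called in each. Mirg (1.03, 1.27 and 1.09) and Peg13 (0.80, 0.67 and -0.06) changed less.
Rian lost its call in control cultures, with 0.04 (SE 0.09, adjusted p 0.708), and had 0.24 in ECL and 0.51 in Synpo-/- cultures. With length and GC trends removed together, Rian also lost its call in Synpo-/- cultures (0.34, adjusted p 0.0545). Snhg11 had 0.26 in control cultures in place of 0.55 with the length trend removed (adjusted p 0.0469).
Miat lost its call with length and GC trends removed in control (0.25, adjusted p 0.142) and in Synpo-/- cultures (0.40, adjusted p 0.0668), and in Synpo-/- cultures also with all groups in one fit (0.75, adjusted p 0.0761). Meg3, which was not called, changed sign with the length trend removed in all 3 comparisons, to -0.31, -0.12 and -0.24. Malat1 passed the test as lower in control cultures, with -0.44 (SE 0.14, adjusted p 0.0146).

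Other groups of RNA give the context of these values in Synpo+/+ control cultures, each counted in the same fit. Of all 18222 genes tested there, 5389 were called higher and 4642 lower. The dendritic and postsynaptic mRNAs (24 of 25 tested called higher, 0 lower, median 0.67) and the 13 mRNAs encoded in mitochondria (13 higher, median 0.95) had medians near that of the noncoding RNAs. The cytosolic ribosomal protein mRNAs were lower (0 higher, 43 of 46 lower, median -0.81). In Synpo-/- cultures 11 of 25 dendritic mRNAs, 5 of 13 mitochondrial mRNAs and 0 of 46 ribosomal protein mRNAs were higher, with medians of 0.36, 0.45 and -0.74. There, 15.0% of all genes were called higher with 2 lysates, against 29.6% with 5 lysates in Synpo+/+ control cultures. The genotype difference in coIP effect was called for 0 of these 25, 13 and 46 mRNAs, as for 0% of all genes. The highest and lowest postsynaptic mRNAs in control cultures were Dlgap3 (1.30) and Shank1 (1.21), which encode postsynaptic scaffold proteins, and Gria3 (0.25) and Gria2 (0.14, not called), which encode glutamate receptor subunits.
Of 29 other named long noncoding RNAs tested, 8 were higher and 8 lower, with a median of -0.10. Dnm3os, an antisense RNA within Dnm3, was highest among those called (1.95, adjusted p 3.32e-06), Xist had 1.86 without a call (SE 1.54), and Pantr1 (-0.73) and Snhg18 (-1.10) were lowest. Of 25 imprinted coding genes 11 were higher and 4 lower (median 0.42), from Zim1 (1.25) and the receptor gene Igf2r (1.07) down to Chrac1 (-0.995) and Snrpn (-1.20). The mRNAs of paraspeckle and speckle proteins were split, with 4 of 19 higher and 4 lower (median -0.06). Son (0.88) and Srrm2 (0.87), scaffold proteins of speckles, were higher, and Rbfox1 (-0.71) and Srsf3 (-0.97) were lower.
Cell type markers were counted in the same fit. Of 8 astrocyte markers 3 were higher and 0 lower, of 10 microglia markers 0 were higher and 4 lower, of 9 neuron markers 2 were higher and 1 lower, of 8 oligodendrocyte markers 0 were called, and of 4 endothelial markers tested 2 were higher. Of 7 dentate granule cell markers 3 were lower and of 7 CA3 pyramidal cell markers 2 were higher and 2 lower. Their part in the results was not tested.

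The genes most like each RNA across the 24 libraries of the Synpo-coIP experiment were taken from 9600 genes with a mean above 10 CPM, by Pearson's r of log2 CPM. The points share lysates and fractions, so these r describe the libraries and carry no test. Neat1 was most like Mir99ahg (0.973), Bmp1 (0.967) and Sidt2 (0.962), Kcnq1ot1 like the unnamed transcripts 9330162G02Rik (0.987), A230103L15Rik (0.986) and Gm44559 (0.981), and Rian like Gm43322 (0.977), Gm44831 (0.975) and Dock4 (0.975). Mirg was most like Cacna1a (0.985), Chd6 (0.982) and Mast4 (0.977), and Miat like Cacnb2 (0.958), Sfswap (0.940) and Fam193b (0.937). Snhg11 had Cstf2 (0.933), Gm45204 (0.921) and Ubp1 (0.921) and Meg3 had Akap8 (0.910), Trank1 (0.886) and Snrnp70 (0.879).
Malat1 had weaker neighbours in Usp16 (0.819), Dcun1d5 (0.787) and Srsf6 (0.749). Peg13 was most like Arrb1 (0.938), Fam234b (0.921) and Git1 (0.911). Arrb1 changed by 0.79 in control and 0.14 in Synpo-/- cultures, and Git1 by 0.82 and 0.09. Among the RNAs themselves Rian and Kcnq1ot1 were most alike (0.974), and Malat1 and Peg13 least (-0.526).

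The lesion left these RNAs without a called change in the Synpo-coIP experiment, which pools whole cultures. The edgeR test called 0 of the 9 RNAs in the inputs, where 5.61% of all genes were called, and 0 in the coIP, where 0.314% were. By unadjusted p, 1 RNA in the inputs and 3 in the coIP were under 0.05 in edgeR. These counts were not set against the share of all genes at that threshold. Snhg11 came nearest in the inputs, with 1409, 1377, 1308, 1398 and 1319 CPM in control against 1163, 1208, 1164, 1236 and 1066 CPM in ECL cultures, without overlap (log2 fold change -0.23, SE 0.06, adjusted p 0.0525). DESeq2 called it (adjusted p 0.0059), as did edgeR without ECL replicate 4 (-0.26, adjusted p 0.0479) or control replicate 1 (-0.23, adjusted p 0.0458).

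In the dissected dentate gyrus, where granule cells lose their entorhinal input, the lesion was followed by a higher level of Neat1 in both genotypes. In Synpo+/+ DG Neat1 had 90.3, 92.3, 87.3 and 100.2 CPM in control and 126 to 175 CPM (median 146, n = 7) in ECL cultures, without overlap (log2 fold change 0.59, SE 0.12, adjusted p 0.00584). In Synpo-/- DG it had 79.3 to 116 CPM (median 100.0, n = 7) in control and 235, 192, 132 and 123 CPM in ECL cultures, again without overlap (0.80, SE 0.16, adjusted p 0.00551). In bulk tissue, a change in the number of cells of a type and in RNA per cell cannot be told apart.
In Synpo+/+ DG all 10 microglia markers and 6 of 8 astrocyte markers were also called higher, none was at 0, and the summed microglia markers ranged from 435 to 620 CPM in control and from 1189 to 1559 CPM in ECL cultures. In Synpo-/- DG 8 of 10 and 7 of 8 were called, and the sums were 546 to 1326 CPM and 1199 to 1690 CPM. The summed astrocyte markers went from 4170 to 5210 CPM up to 7077 to 9332 CPM in Synpo+/+ and from 4732 to 5924 CPM up to 7424 to 9166 CPM in Synpo-/- DG. The part of these cells in the Neat1 change was not tested. Without Synpo+/+ DG ECL replicate 5, the library with Prox1 at the level of CA3, Neat1 had a log2 fold change of 0.57 (adjusted p 0.00413).

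**Figure D4:**
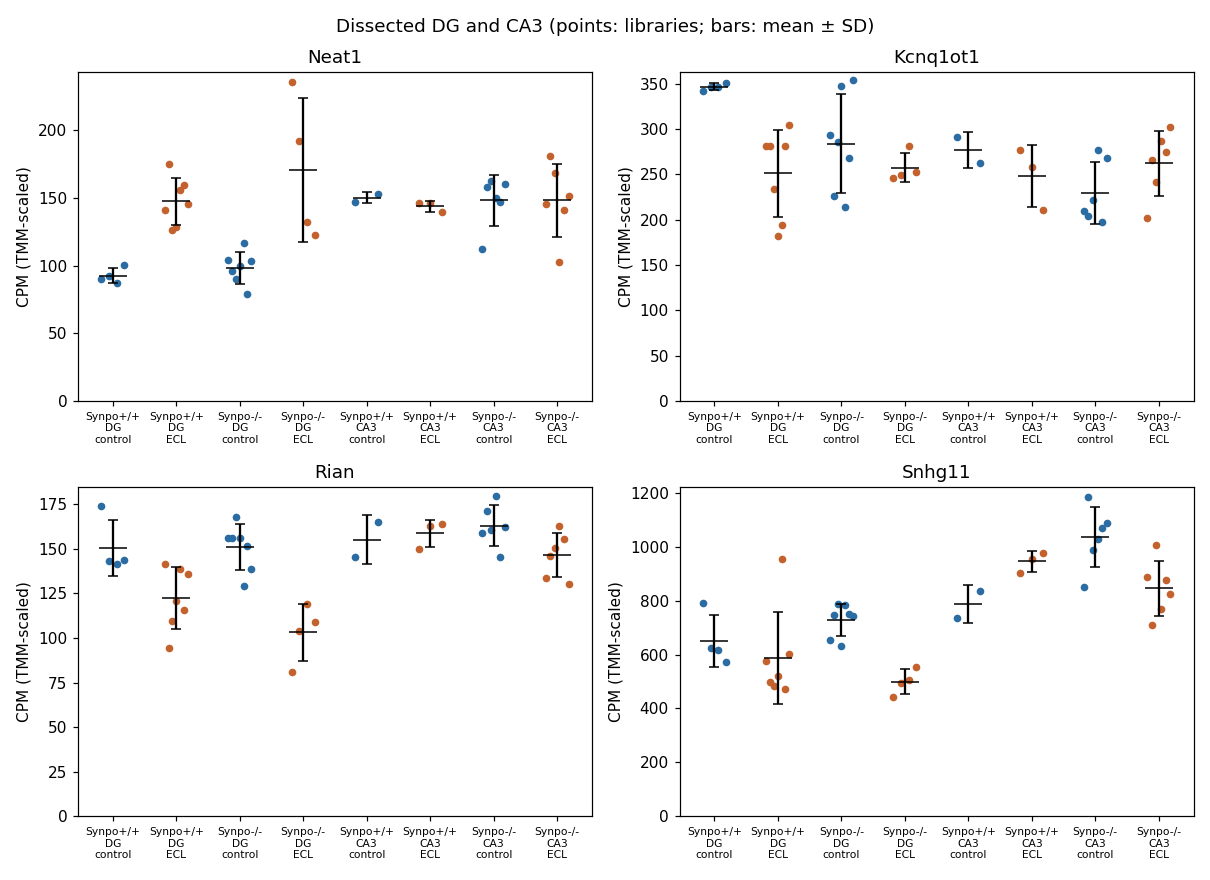
TMM-scaled CPM of Neat1, Kcnq1ot1, Rian and Snhg11 in each regional library (points) with mean and SD (bars), for 4 groups of DG and 4 of CA3, with y axes starting at 0. Neat1 is higher in ECL than in control DG of both genotypes, and the highest Snhg11 value among the DG libraries, 955 CPM, belongs to Synpo+/+ DG ECL replicate 5.

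Rian was lower after the lesion in the DG. In Synpo+/+ DG it had 174, 143, 142 and 144 CPM in control and 94.3 to 142 CPM (median 121) in ECL cultures (log2 fold change -0.38, SE 0.12, adjusted p 0.0459). In Synpo-/- DG 129 to 168 CPM (median 156) in control stood against 80.9, 104, 119 and 109 CPM in ECL cultures, without overlap (-0.55, SE 0.10, adjusted p 0.00327), a call that was lost with length and GC trends removed (-0.19, adjusted p 0.156). The Synpo+/+ call of Rian was lost with the length trend removed (-0.23, adjusted p 0.135) and without a filter on low counts (-0.33, adjusted p 0.139). It was also lost when any of 7 of the 11 libraries was left out (controls 1 to 4 and ECL 3, 4 and 6), with log2 fold changes from -0.46 to -0.31 over all 11.
Kcnq1ot1 was called lower in Synpo+/+ DG, with 341, 347, 347 and 351 CPM in control and 182 to 305 CPM (median 281) in ECL cultures (-0.54, SE 0.15, adjusted p 0.0317), a call that was lost without 6 of the 11 libraries (controls 1 to 4 and ECL 3 and 4) and with the length trend removed (-0.21, adjusted p 0.241). It was not called in Synpo-/- DG (-0.14, SE 0.14, adjusted p 0.637). Snhg11 was called lower in Synpo-/- DG, where 632 to 787 CPM (median 746) fell to 443, 496, 504 and 555 CPM (-0.54, SE 0.09, adjusted p 0.00137, against -0.46 and adjusted p 0.0881 with the replicate number as a block).
In Synpo+/+ DG Snhg11 changed by -0.23 (SE 0.17, adjusted p 0.347), and without ECL replicate 5, which had 955 CPM, by -0.40 (adjusted p 0.0227). Malat1, Meg3, Mirg, Miat and Peg13 were not called in either genotype, with log2 fold changes from -0.28 to 0.05. In all, 3 of 9 RNAs were called in Synpo+/+ DG, where 12.2% of all genes were, and 3 of 9 in Synpo-/- DG, against 8.53%. Of 31 other named long noncoding RNAs tested, 0 were higher and 3 lower in Synpo+/+ DG and 0 higher and 6 lower in Synpo-/- DG.

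In CA3 no change was called in either genotype. Of the 9 RNAs 0 passed the test in Synpo+/+ CA3, with 2 control and 3 ECL libraries and 1.78% of all genes called, and 0 in Synpo-/- CA3, where 0.0770% of all genes were called. At an unadjusted p under 0.05 edgeR gave 3 RNAs in Synpo+/+ and 1 in Synpo-/- CA3, not set against the share of all genes at that threshold. Neat1 had 147 and 153 CPM in control and 146, 146 and 139 CPM in ECL libraries of Synpo+/+ CA3 (-0.20, SE 0.11, adjusted p 0.308), and its log2 fold change in Synpo-/- CA3 was 0.01 (SE 0.13).
The lesion effects did not differ between genotypes at an adjusted p under 0.05 for any RNA. In CA3 0 of 9 RNAs and 0% of all genes were called (DESeq2 called 383 genes, 1 of them an RNA of this set). In the DG 0 of 9 and 0.00381% were. An unadjusted p under 0.05 in edgeR was found for 4 RNAs in CA3 and 0 in the DG. These counts were not set against the share of all genes at that threshold. The smallest adjusted p among the RNAs was that of Malat1 in CA3 (difference -0.53, SE 0.17, adjusted p 0.162).

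**Figure D5:**
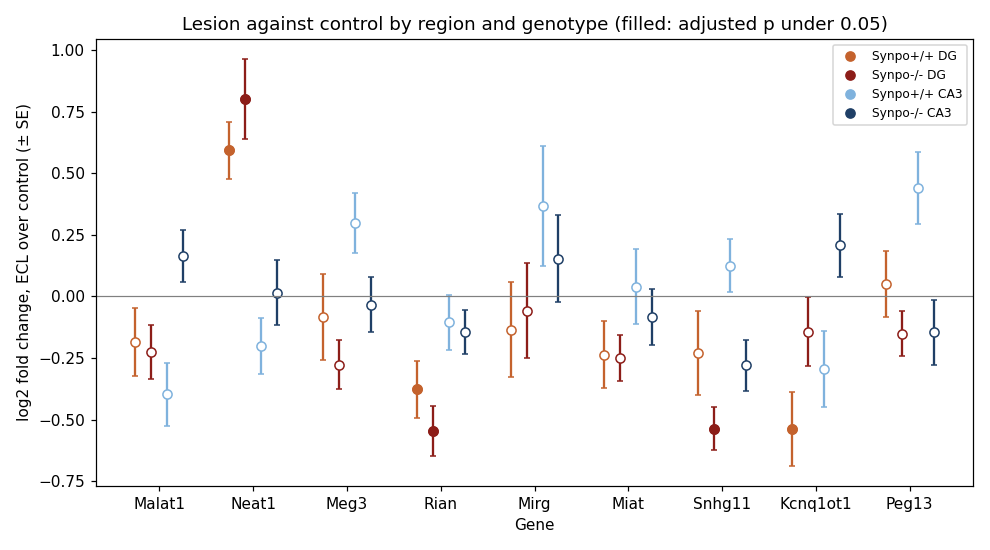
Fitted log2 fold change of ECL over control with its SE for each RNA in DG and CA3 of both genotypes (edgeR), with filled points where the adjusted p was under 0.05. Neat1 is above 0 in the DG of both genotypes (0.59 and 0.80), and Rian is below it (-0.38 and -0.55).

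Without lesion, Neat1 was lower in the DG than in CA3. In Synpo+/+ cultures the DG values given above stood against 147 and 153 CPM in CA3 (log2 fold change DG over CA3 -0.69, SE 0.13, adjusted p 0.00513), and in Synpo-/- cultures 79.3 to 116 CPM stood against 112 to 163 CPM (-0.54, SE 0.11, adjusted p 0.00108). With the replicate number as a block the Synpo+/+ value was -0.70 (adjusted p 0.254). After the lesion Neat1 in Synpo+/+ DG, at 126 to 175 CPM, spanned the values of control CA3. It was the only 1 of 9 RNAs called in Synpo+/+ cultures, where 5.39% of all genes differed between regions. In Synpo-/- cultures, with 25.5% of all genes called, 4 of 9 RNAs were called.
Apart from Neat1 these were Snhg11 (-0.46, SE 0.08, adjusted p 0.000325), Miat (0.39, SE 0.10, adjusted p 0.00502) and Malat1 (0.36, SE 0.10, adjusted p 0.0092), of which Miat and Malat1 were higher in the DG. Both lost their call with all groups in one fit (Miat 0.28, adjusted p 0.0632, Malat1 0.25, adjusted p 0.0618), and Malat1 also without a filter (0.34, adjusted p 0.0645). Oligodendrocyte markers were lower in the DG as well, 8 of 8 in Synpo-/- (median -1.26) and 5 of 8 in Synpo+/+ cultures (median -0.94). Their summed level was 523 to 1643 CPM in the DG and 1840.5 to 2989.5 CPM in CA3 of Synpo-/- and 567 to 948 CPM and 1329 to 2119 CPM in Synpo+/+ cultures, and none was at 0 in all libraries of a group. Of 8 astrocyte markers 4 were called lower in Synpo-/- and 1 in Synpo+/+ cultures, and of 10 microglia markers 2 and 0. The part of these cells in the regional differences was not tested. Kcnq1ot1 (0.36, adjusted p 0.0679) was called when CA3 replicate 4 (0.45, adjusted p 0.0253), DG replicate 2 (0.42, adjusted p 0.0294) or DG replicate 5 (0.38, adjusted p 0.0469) was left out.

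Between the genotypes in control cultures, 0 of 9 RNAs were called in CA3 and 0 in the DG, where 0.00413% and 0.0166% of all genes were. At an unadjusted p under 0.05, edgeR gave 4 RNAs in CA3 and 1 in the DG. The percentages above are for adjusted p, and the share of all genes at the unadjusted threshold was not set beside these counts. Kcnq1ot1 had the largest difference in the DG (Synpo-/- over Synpo+/+ -0.38, SE 0.14, adjusted p 0.239), and Malat1 in CA3 (-0.36, SE 0.12, adjusted p 0.181).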

How the data were processed

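Gene counts of 63 libraries were used, 24 from the Synpo-coIP and 39 from the regional experiment. According to the submitters' processing notes, the authors trimmed reads with cutadapt (3.5 for 59 libraries), aligned them with STAR (2.7.8a) to mm10 and counted them with featureCounts (2.0.1) over GENCODE exons, without strand. The deposited values are counts that were not normalized. Each comparison was fitted with edgeR 4.0.16 in R 4.3.3 (TMM, filterByExpr, quasi-likelihood test, Benjamini-Hochberg adjustment over all genes tested, threshold 0.05), after tests on simulated data. CPM were scaled by TMM within each experiment, and TPM used exonic lengths. The coIP and input of a replicate come from the same lysate, and their deviations from the group means correlated with r from 0.105 to 0.442 in the 10 Synpo+/+ pairs and with 0.0456 in Synpo-/-, whose replicate labels conflict. Their preparation number was used. Alternatives were DESeq2 1.42.0, RLE factors, scaling on coding genes, no filter, a replicate block, removal of length or length and GC trends (lowess, span 0.3), pooled fits, a count limit of 300 and leaving out each library. For the genotype difference in coIP effect, the lesioned Synpo+/+ samples were also used in place of the controls.

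The members, the gene lists and the tests were chosen with earlier results of these data known. Named are the 9 RNAs, Synpo, Prox1, genes that overlap an RNA, the 2 highest and 2 lowest genes of a list in Synpo+/+ control cultures (given for the lists of other noncoding, imprinted, speckle and postsynaptic genes) and the 3 genes most like each RNA. Where the labels name no separate cultures, p-values measure the spread between samples. Of 130 pairs of replicates 0 were identical, and the mean chi-square per gene was at least 7.49. Counting error was smaller than the spread.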

Additional observations from a re-analysis of the deposited data

Results flagged for a closer look

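In 90 sets of values (9 RNAs in the 10 groups of 4 to 7 libraries), 8 held a library whose gap to the others exceeded Dixon's 95% critical value, and chance gives about 1 in 20. They were Malat1 in Synpo-/- DG ECL replicate 2 (17881 CPM, the others 13255 to 13971), Neat1 in Synpo-/- CA3 control replicate 1 (112 CPM, the others 147 to 163), Meg3 in Synpo-/- CA3 ECL replicate 6 (1244 CPM, the others 980 to 1054) and Mirg in the same library (8.68 CPM, the others 4.79 to 6.16). In Synpo+/+ DG control, Rian stood apart in replicate 1 (174 CPM, the others 142 to 144) and Mirg in replicate 2 (5.73 CPM, the others 4.94 to 5.01). Miat stood apart in Synpo+/+ control coIP replicate 3 (59.3 CPM, the others 33.4 to 40.8), which had the lowest total count of its group, and Snhg11 in Synpo+/+ DG ECL replicate 5 (955 CPM, the others 473 to 601), the library with Prox1 at the level of CA3.

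For Peg13 the coIP was above the input in all 5 Synpo+/+ control lysates and not in either Synpo-/- lysate, where the change was not called (log2 fold change -0.08, edgeR, adjusted p 0.685). The tested difference of the effects was 0.85 on the log2 scale (edgeR, adjusted p 0.48). Snhg11 in CA3 was above the control mean in every Synpo+/+ ECL library and below it in every Synpo-/- ECL library, a difference of 0.43 (edgeR, SE 0.18, adjusted p 0.236).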

How the results depend on the processing

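With all libraries kept, 69 values of single RNAs that were not called before or after changed sign, among them Meg3 in all 3 coIP comparisons with length, or length and GC, trends removed. In 2 more, 1 of the values was called: Meg3 in coIP against input of Synpo+/+ control (-0.33 with the length trend removed and a replicate block, chosen after seeing the data) and Rian after ECL in Synpo+/+ DG (0.0671, adjusted p 0.742, with length and GC trends removed). The cause was not tested.

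The number of RNAs called stayed within 1.5 times of the reported one except here. For the difference between genotypes in the coIP effect, 1 RNA (Peg13) in place of 0 was called with DESeq2, without a filter, with the replicate block, with the crossed block of the Synpo-/- preparations and with block and length trend together, the last 2 chosen after seeing the data. After ECL, 1 in place of 0 was called in the inputs (Snhg11) with DESeq2 and with length, or length and GC, trends removed. In Synpo+/+ CA3 it was 1 without a filter and 2 with the replicate block (Malat1 and Meg3), in Synpo+/+ DG 1 in place of 3 with either trend removed, and in Synpo-/- DG 5 in place of 3 with DESeq2 or scaling on coding genes (Meg3 and Miat added). For DG against CA3 it was 0 in place of 1 in Synpo+/+ with the block, and 2 in place of 4 in Synpo-/- with all groups fitted together. For genotype by lesion in CA3 it was 1 with DESeq2. Leaving out each library gave 0 to 1 in the inputs, 1 to 4 in Synpo+/+ DG, 5 to 7 in Synpo-/- coIP, 7 to 8 and 7 to 9 in Synpo+/+ control and ECL coIP. Outside the coIP experiment replicates share only a number.

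Counts over all genes moved by more than 1.5 times in several comparisons. Against 0 for genotype by fraction stood 29 to 61. After ECL the reported counts and their alternatives were 1007 against 639 to 1676 in the inputs, 58 against 1 to 357 in the coIP, 397 against 1 to 2716 in Synpo+/+ CA3, 2886 against 1399 to 4305 in Synpo+/+ DG, 16 against 9 to 86 in Synpo-/- CA3 and 1989 against 572 to 2298 in Synpo-/- DG. For DG against CA3 they were 1382 against 785 to 1811 and 5467 against 3254 to 6400, and between genotypes 1 against 2130 in CA3 and 4 against 259 in the DG at most. Scaling on coding genes shifted the genes tested after ECL in Synpo+/+ DG to a median of -0.11 on the log2 scale and the higher calls at 1183 of 2535 in place of 1864 of 2886. Neat1 (0.48) and Rian (-0.49) remained called there.

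Mirg had the fewest reads, 58 to 257 per regional library, so small changes of it were not detectable.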
